A study of Arabidopsis thaliana with 13 samples.

Results

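Wild-type Arabidopsis thaliana seedlings (accession Col-0) that had been treated for 120 min with the synthetic cytokinin 6-benzyl adenine (BA) were compared with Col-0 seedlings that received only the solvent. The comparison took in every array whose title gives Col-0 with BA for 120 min or for 0 min, which came to 4 of the 13 arrays in the series, 2 in each group. Expression was read on Affymetrix ATH1 arrays as 1 normalized signal intensity per probe set, on a linear scale in arbitrary units, and all 22746 probe sets other than the array's own controls were tested. The BA seedlings had grown for 6 days in liquid MS medium (a mineral salt medium) and received BA in diluted KOH at a dose that is not given in the sources used here. The solvent seedlings had also grown in liquid MS, for a time that is not given, and received solvent for 2 h, which matches the 120 min of BA. No group carried a transgene, whole seedlings were taken, and nothing says whether the 2 arrays of a group stand for 2 cultures, so the spread behind each p-value may be technical. The other 9 arrays served as background: a pair of Col-0 arrays at 15 min of BA, and, from a CKX1 line, 4 arrays at 15 min of BA and 3 with solvent. CKX1 is a cytokinin oxidase, which breaks cytokinins down, and the line overexpresses it from the 35S promoter.

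Cytokinins are adenine-derived plant hormones that promote cell division, greening and shoot growth and restrain root growth. Histidine kinase receptors sense them and pass phosphate through phosphotransfer proteins to type-B response regulators, which are transcription factors. Among their earliest targets are the type-A response regulators, which feed back on the pathway and dampen it. Cytokinin oxidases and glycosyltransferases such as UGT76C1 and UGT76C2 remove active hormone by cleavage and by coupling it to glucose.

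The arrays fell apart in a technical measure as well as in treatment. The control probe set for 25S ribosomal RNA read 695.9 and 548.2 units in the BA 120 min arrays, against 46.2 and 18.1 units in the solvent arrays. Among the other 9 arrays it was 803.7 units in CKX1 15 min array 3, 260.3 in CKX1 solvent array 3 and 92.5 in Col-0 15 min array 2, and at most 21.0 in the remaining 6. The 3'/5' signal ratio of the GAPDH control, a measure of RNA integrity and labelling, was 1.03 and 1.12 in the BA arrays and 0.76 and 0.78 in the solvent arrays. For the actin control this ratio was 9.8 and 8.3 with BA and 5.8 and 7.8 with solvent. The geometric mean of the bio and cre spike controls was 332.6 and 725.4 units with BA, against 209.7 and 187.8 units with solvent. Array medians were 32.8 and 31.4 units with BA and 39.5 and 35.4 units with solvent. The source field of BA 120 min array 1 names control solution, while its title and description give 120 min of BA. Its values correlated at 0.97 with those of BA array 2, and the correlations between a BA and a solvent array were 0.92 to 0.94 (log2 scale; the points are probe sets and share each array). CKX1 solvent array 3 received no BA.

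After 120 min of BA, 503 probe sets stood higher and 713 lower than with solvent (limma with an intensity trend, Benjamini-Hochberg adjusted p under 0.05). That is 5.35% of the 22746 tested, 2.21% higher and 3.13% lower. Of the 13513 probe sets with 1 listed gene, 238 were higher (1.76%, 236 different genes) and 359 lower (2.66%, 359 genes), while 263 and 340 of the called probe sets had no listed gene. The median size of a call was 1.45 on the log2 scale among the higher and 1.53 among the lower, and the smallest was 0.54 and 0.57. Calls were made for 9.81% of probe sets with at least 50 units in the higher group and for 1.48% of those below. Over all probe sets the 2 BA arrays lay above both solvent arrays in 22.4% and below both in 32.8%, so the groups did not overlap in 55.1%. The share of calls that were higher was 41.4%, and it was 55.3% once each array was centred on its median, which moved the median log2 fold change of all probe sets to 0.10, against −0.10 as deposited. The calls depended on the variance model and the filter: 0 probe sets passed without the intensity trend (lowest adjusted p 0.053, with 5865 probe sets under 0.05 before adjustment), 2477 passed without the trend but above the 30th percentile of signal (a setting chosen after seeing the data), and 0 passed when any 1 of the 4 arrays was left out. Over all 13 arrays in their 5 groups, without a covariate, 1 of the 71 named and called genes passed. That gene was LTI30, so the rest of the 71 had lost their calls before any covariate was added. With the 25S signal as a covariate in that fit, 5 of the 71 were past the threshold: AT5G10040, AT2G17850, AT4G33560, EXPA16 and LTI30. All adjusted p-values of calls lay between 0.034 and 0.050.

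**Figure D1:**
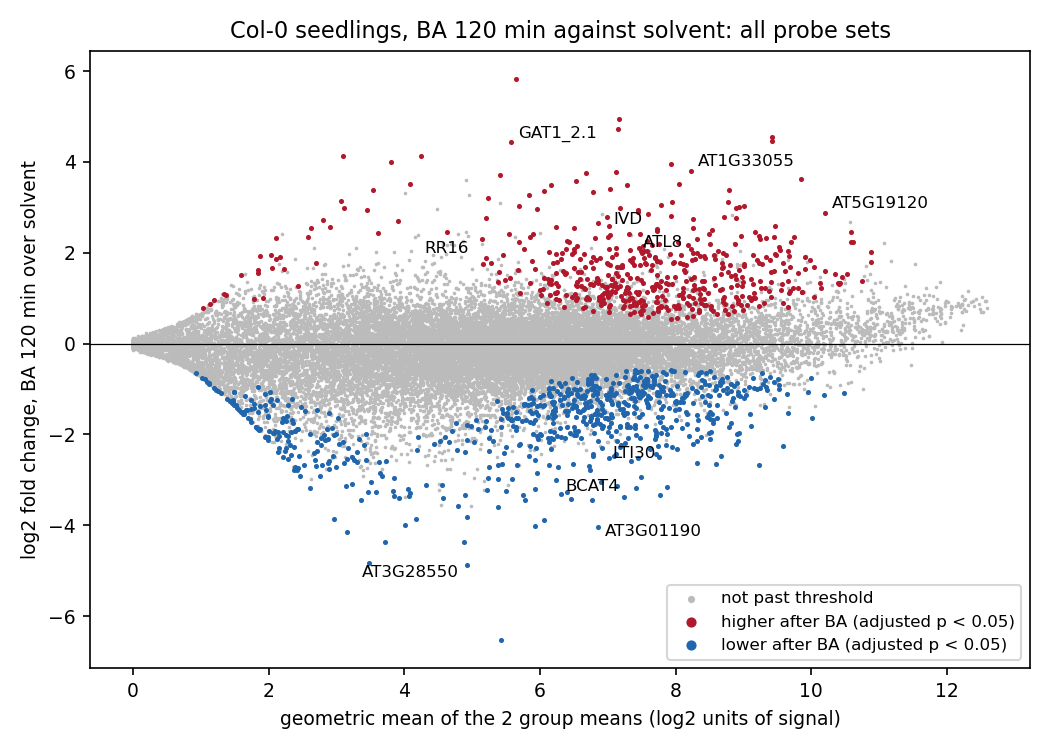
Log2 fold change of BA 120 min over solvent (vertical axis) against the geometric mean of the 2 group means in log2 units of signal (horizontal axis), 1 point per probe set, 2 arrays a group. Red points are the 503 probe sets called higher after BA, blue points the 713 called lower, and named genes are those described in the text; calls thin out at low signal except where a group is near 0.

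Of the 10 type-A response regulators, 2 had a probe set listed with 1 gene. RR16 read 67.0 and 84.1 units after BA, against 19.6 and 16.2 units with solvent. It rose by 1.89 on the log2 scale (SE 0.228, adjusted p = 0.047). ARR15 read 80.4 and 61.7 units after BA, against 11.3 and 2.7 units with solvent. The BA arrays of both genes stood above both solvent arrays. The fitted difference for ARR15 was larger, 2.96, but its SE of 0.553 left it at an adjusted p of 0.081. In CKX1 solvent array 3, where the 25S control was high, RR16 read 11.2 units and ARR15 3.2 units. CKX1 solvent arrays 1 and 2, with low 25S signal, read 4.4 and 11.4 units for RR16 and 3.3 and 11.4 units for ARR15. These arrays come from the CKX1 overexpressor, so their genotype differs from that of the compared arrays. Over all 13 arrays without a covariate RR16 had 1.89 and ARR15 2.96, and neither passed (limma, adjusted p = 0.35 and 0.15). With the 25S signal as a covariate in that fit they had 2.65 and 3.44 and again missed the threshold (adjusted p = 0.15 and 0.096).

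The 2 cytokinin N-glucosyltransferases did not pass the threshold. UGT76C1 had 86.2 and 84.3 units after BA and 28.8 and 36.0 units with solvent, a log2 difference of 1.32 (SE 0.173, adjusted p = 0.051). UGT76C2 had 297.4 and 245.6 units after BA and 151.1 and 67.9 units with solvent, a difference of 1.38 (SE 0.444, adjusted p = 0.18). For each enzyme the lower BA array exceeded the higher solvent array. UGT73C1, which also conjugates cytokinins, read at most 3.4 units in these 4 arrays, and the type-B regulator RR18 read 14.7 and 1.7 units after BA and 17.2 and 6.3 units with solvent. Cytokinin oxidases, receptors and cytokinin response factors were not analysed here, since the annotation pairs none of them with a probe set of its own.

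At 15 min ARR15 had already reached 119.8 and 57.8 units and RR16 68.3 and 31.1 units, so that the 15 min and 120 min arrays overlapped for both genes. UGT76C2 read 155.9 and 140.3 units at 15 min, close to the higher solvent array.

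**Figure D2:**
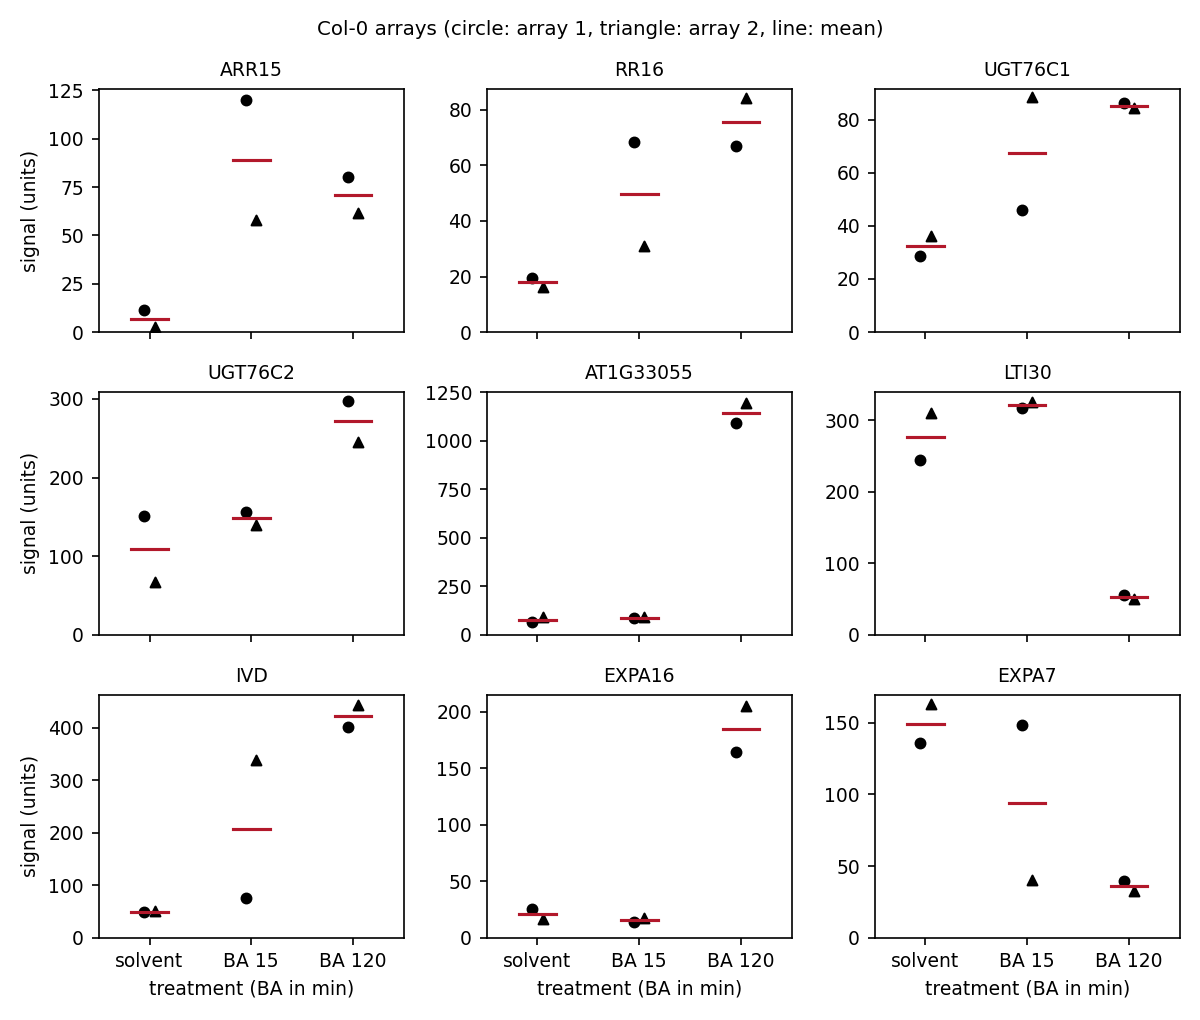
Signal in units (vertical axes, each from 0) of 9 genes in the 6 Col-0 arrays, by treatment with solvent, BA for 15 min and BA for 120 min (circle, array 1; triangle, array 2; red line, mean). ARR15 and RR16 stood above solvent at both times, AT1G33055 and EXPA16 stood near solvent at 15 min, and 15 min array 2 lay near the 120 min arrays for IVD and EXPA7.

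Among the gene lists examined, the one with the most rises was the core low-oxygen list, genes that root studies found to be raised by oxygen shortage in many cell types. Of its 32 genes 16 were measured, and 9 rose, 0 fell and 7 did not pass (background for rises 2.21%). All 16 had both BA arrays above both solvent arrays, where 22.4% of all probe sets did. Their median log2 fold change was 2.21, against −0.10 for all probe sets. AT1G33055 read 1090.6 and 1196.8 units after BA, against 67.9 and 90.2 units with solvent, a rise of 3.81 (SE 0.171, adjusted p = 0.034). AT5G10040 read 163.2 and 187.4 units after BA, against 8.5 and 12 units with solvent, a rise of 3.72 (SE 0.218, adjusted p = 0.034). AT1G19530 read 1334.2 and 1214.3 units after BA, against 104.5 and 196.5 units with solvent, a rise of 3.12 (SE 0.35, adjusted p = 0.043). For each of these the lowest BA array stood several-fold above the highest solvent array.

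AT2G17850 rose by 2.86, with 506.3 and 545.0 units after BA against 60.1 and 80.7 units with solvent. The rises of AT4G33560, AT3G27220 and AT4G10270 were 2.26, 2.26 and 2.19, and those of AT5G42200 and AT4G24110 were 2.02 and 1.43. AT3G10040, which RefSeq also lists as HRA1 (hypoxia response attenuator 1), had 127.2 and 102.9 units after BA and 29.4 and 13 units with solvent, a difference of 2.35 that missed the threshold (adjusted p = 0.077). The signals of the other non-passing members also differed in that direction, by 0.63 at the least.

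The list's geometric mean was 341 and 374 units in the BA 120 min arrays, against 71.9 and 89.9 units in the solvent arrays. In the other 9 arrays it lay between 29.4 and 159 units, with 29.4 in Col-0 15 min array 2, 74.3 in CKX1 15 min array 3 and 110 in CKX1 solvent array 3, the 3 that share the high 25S signal. No other array therefore came near the BA 120 min level for the list as a whole. Several single members did. AT1G33055 reached 943.8 units in CKX1 solvent array 3, below its BA values, and AT4G33560 reached 503.7 units in CKX1 15 min array 2. AT4G39675 had 949.5 and 979.2 units after BA, but 2153.6 in CKX1 15 min array 3 and 1327.5 in CKX1 solvent array 3. AT3G03270 had 1214.6 and 1455.0 units after BA, but 2168.7 in CKX1 15 min array 2. With the 25S covariate the list's median was 2.81, and AT5G10040, AT2G17850 and AT4G33560 stayed past the threshold over all probe sets (adjusted p = 0.042, 0.013 and 0.043).

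**Figure D3:**
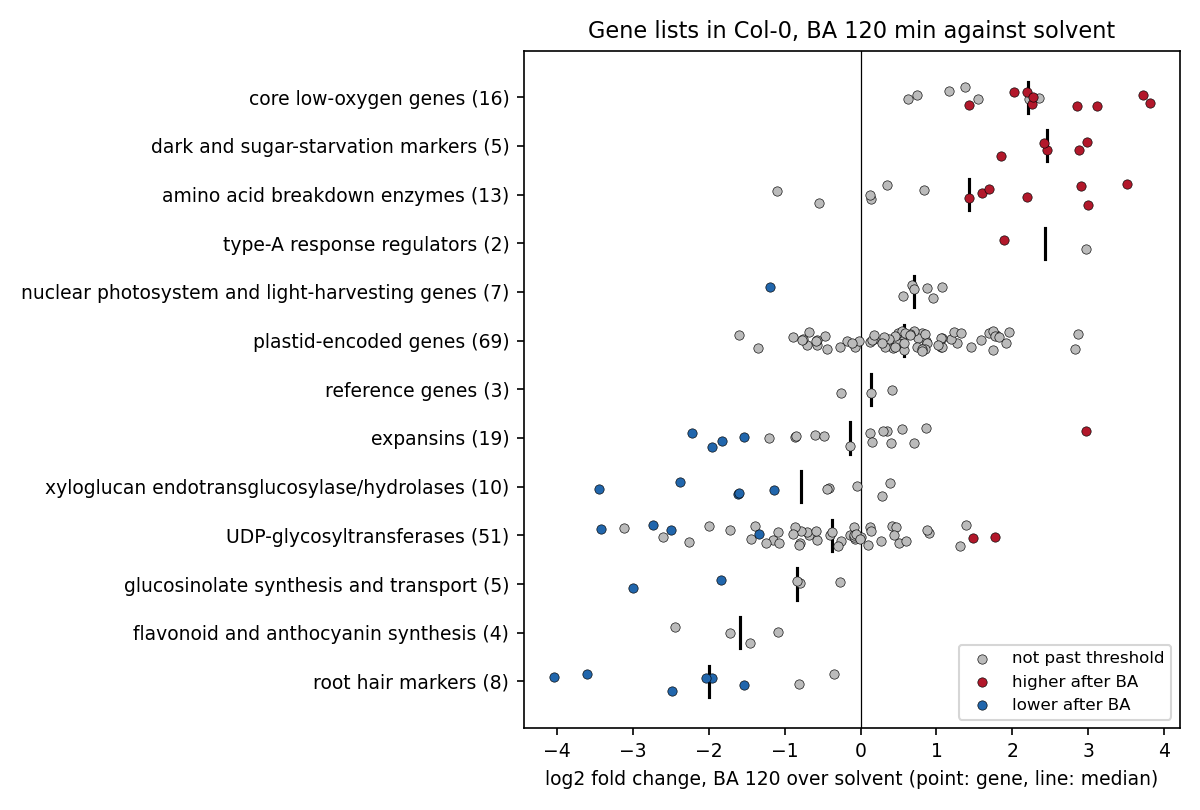
Log2 fold change of BA 120 min over solvent for the measured genes of 13 lists (1 point per gene, number of genes in brackets, vertical bar at the median), with genes called higher in red, called lower in blue and not past the threshold in grey. The 16 low-oxygen genes all lie above 0 and the 8 root hair markers all below it, while the 3 reference genes lie around 0.

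Genes known to be raised by darkness and sugar shortage rose together. All 5 measured of 13 listed genes were called higher (background for rises 2.21%), with a median log2 fold change of 2.46. This list was drawn up after the values had been seen. AKINBETA1, a regulatory subunit of the SnRK1 energy-sensing kinase, read 993.6 and 1245.9 units after BA, against 316.3 and 299.5 units with solvent (1.84, SE 0.147, adjusted p = 0.035). AT2G20670 read 1311.5 and 1376.0 units after BA, against 144.5 and 191.7 units with solvent, a rise of 2.99. AT5G19120 rose by 2.88 and ATL8, a RING-type ubiquitin ligase, by 2.42. GAT1_2.1, annotated as a glutamine amidotransferase, read 239.4 and 259.5 units after BA, against 4.5 and 13.8 units with solvent, a rise of 4.44 on 1 of its 2 probe sets; the other read at most 13.8 units and differed by 0.47.

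Enzymes that break down amino acids rose alongside them. Of 26 listed enzymes 13 were measured, of which 7 rose and 0 fell (background for rises 2.21%), with a median of 1.43 (this list too was drawn up after the values had been seen). MCCA, the biotin-carrying subunit of methylcrotonyl-CoA carboxylase in leucine breakdown, read 871.0 and 955.0 units after BA, against 89.9 and 65.8 units with solvent, a rise of 3.51 (SE 0.184, adjusted p = 0.034). Its partner subunit MCCB rose by 2.20, with 797.8 and 765.8 units after BA against 176.3 and 159.8 units with solvent. IVD, isovaleryl-CoA dehydrogenase, which acts 1 step earlier, read 401.9 and 443.6 units after BA, against 48.6 and 51.5 units with solvent, a rise of 2.99 (SE 0.0955). ETFQO, which hands electrons from such dehydrogenases to the respiratory chain, rose by 1.69. MGL, methionine gamma-lyase, rose by 2.90, and the aldehyde dehydrogenases ALDH6B2 and ALDH7B4 by 1.60 and 1.43. The electron transfer flavoprotein subunits ETFALPHA and ETFBETA had 0.14 and 0.35 and did not pass. AT4G33150, AT2G26800, D2HGDH and AT5G09300 did not pass either, with 0.84, 0.13, −0.54 and −1.11, and the last pair had both BA arrays below both solvent arrays.

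Both of these groups were also high in arrays that share the 25S signal. The starvation list's geometric mean was 403 and 463 units in the BA 120 min arrays and 65.3 and 82.2 units in the solvent arrays, while it was 420 units in CKX1 solvent array 3, 338 in CKX1 15 min array 3, 212 in Col-0 15 min array 2 and at most 90.8 in the remaining 6. For the amino acid list the same values were 228 and 231 units with BA 120 min, 97.9 and 92.3 units with solvent and 223 units in CKX1 solvent array 3. With the 25S covariate the medians were 0.77 and 0.63, 0 of the 12 called genes passed, and GAT1_2.1 took the opposite sign (−0.17). IVD read 502.6 and MGL 1127.4 units in CKX1 solvent array 3, above their BA 120 min values.

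**Figure D4:**
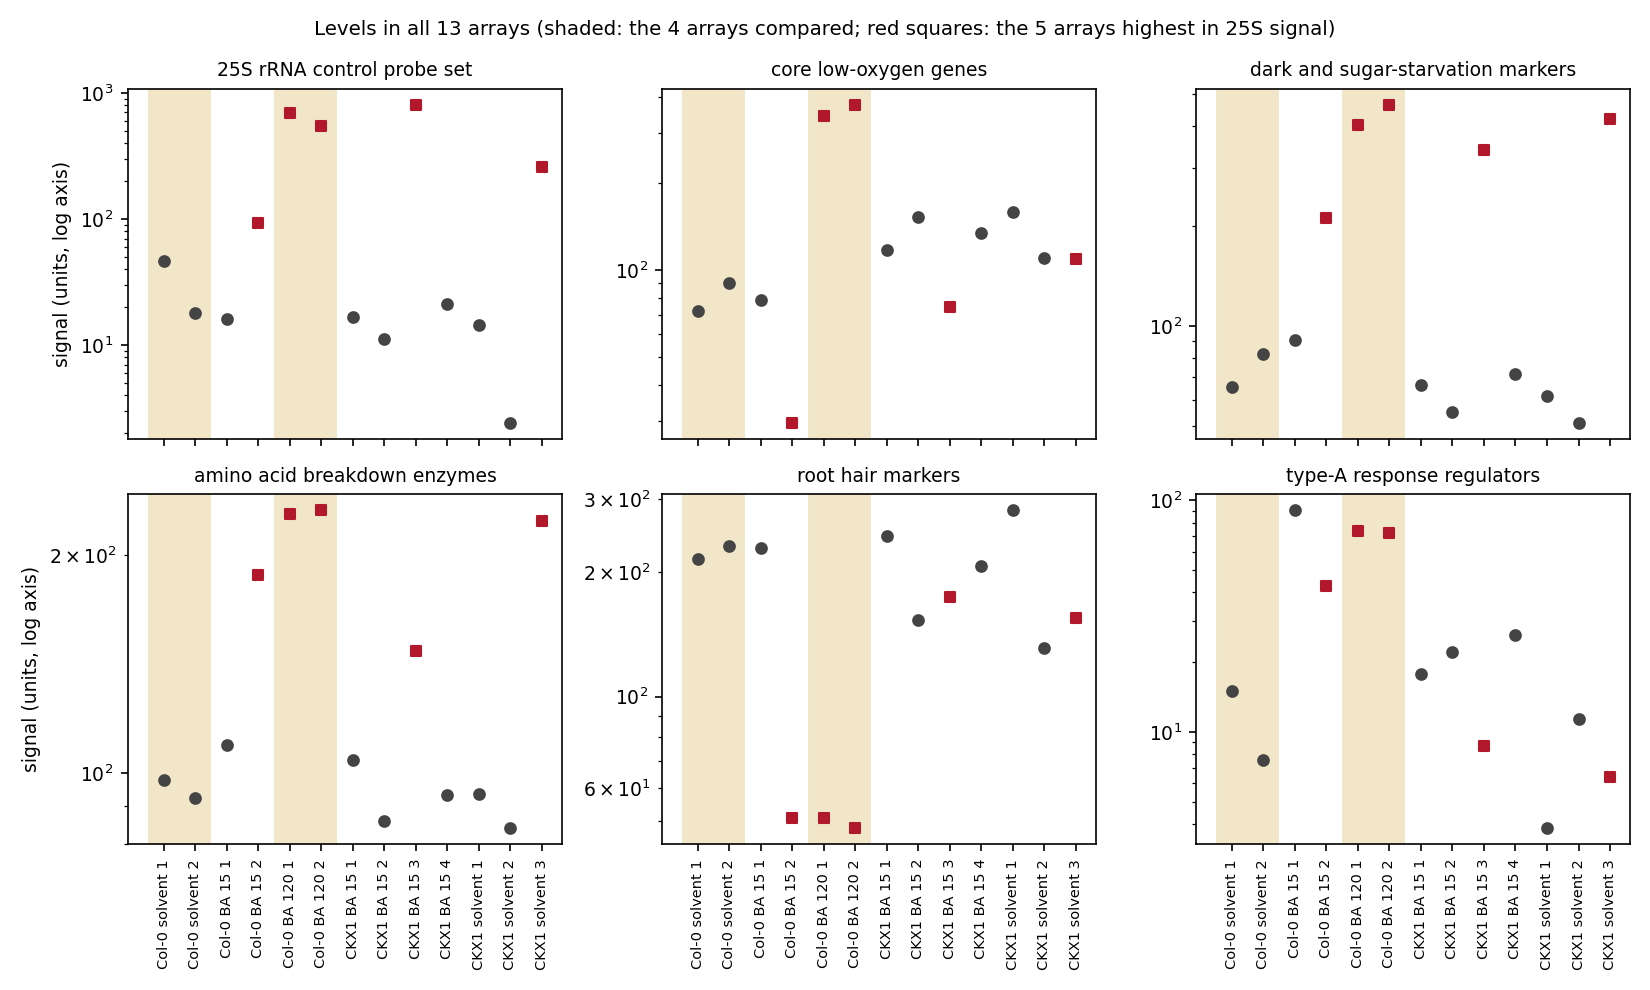
Signal of the 25S ribosomal RNA control and geometric mean signal of 5 gene lists in each of the 13 arrays (units, log axis), with the 4 compared arrays shaded and the 5 arrays highest in 25S signal as red squares. The low-oxygen list is highest in the 2 BA 120 min arrays, whereas the starvation and amino acid lists are high in all 5 red arrays.

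Root hair genes fell. Of 20 markers of root hairs, the tubular outgrowths of root epidermal cells, 8 were measured, of which 6 fell and 0 rose (background for falls 3.13%), with a median of −1.99. EXPA7, an expansin of root hair cells, read 39.8 and 32.6 units after BA, against 135.9 and 163.0 units with solvent, a fall of 1.95 on the log2 scale (SE 0.174, adjusted p = 0.038). Its close relative EXPA18 fell by 1.54. AT3G01190 read 31.3 and 22.9 units after BA, against 550.4 and 442.1 units with solvent, a log2 change of −4.04 (SE 0.209, adjusted p = 0.034). AT4G26010 read 189.3 and 154.3 units after BA, against 846.4 and 1106.8 units with solvent, a change of −2.48. AT5G10130 and AT1G30870 changed by −3.60 and −2.03. The cellulase GH9C1 had 67.5 and 67.9 units after BA and 114.7 and 128.7 units with solvent, a difference of −0.81 that missed the threshold (adjusted p = 0.052), and AT1G07795 overlapped between the groups. Fewer root hair cells and less RNA of these genes per cell cannot be told apart in whole seedlings.

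The root hair list's geometric mean was 51.0 and 48.0 units in the BA 120 min arrays and 216 and 231 units in the solvent arrays. It was 50.9 units in Col-0 15 min array 2, but 229 in Col-0 15 min array 1, and 131 to 283 in the 7 CKX1 arrays, including 174 and 155 in the 2 with high 25S signal. With the 25S covariate its median was −1.61, and 0 of the 6 genes passed. Of 3 markers of other root tissues 0 fell: PYK10, a beta-glucosidase of root endoplasmic reticulum bodies, had 3350.9 and 3862.6 units after BA and 3163.2 and 3267.4 units with solvent, and AT1G62500 rose by 1.40. Pollen markers, which seedlings should lack, read at most 12.7 units in these 4 arrays.

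Enzymes and proteins that loosen or remodel the cell wall went in both directions. Among 10 xyloglucan endotransglucosylase/hydrolases, which cut and rejoin xyloglucan chains, 5 fell and 0 rose (background for falls 3.13%). XTH26 read 1.3 and 2.5 units after BA, against 43.5 and 66.8 units with solvent, and XTH16 read 207.7 and 195.6 units after BA, against 626.0 and 619.7 units with solvent. Their changes were −3.45 and −1.61, those of XTH21, XTH20 and XTH19 were −2.38, −1.60 and −1.14. With the 25S covariate none of the 5 passed, the list's median was −0.36 against −0.79, XTH16 had −0.13 and XTH19 lost its direction (0.065). Among 19 expansins 1 rose and 4 fell (background 2.21% for rises and 3.13% for falls). EXPA16 read 164.1 and 205.6 units after BA, against 25.3 and 16.5 units with solvent, a rise of 2.97 (SE 0.262, adjusted p = 0.038). It read 10.0 to 44.9 units in the other 9 arrays, and it stayed past the threshold with the 25S covariate (3.97, adjusted p = 0.030). Besides the root hair pair, EXPB1 and EXPB3 fell, with changes of −2.23 and −1.83, and EXPB1 read 13.8 to 34.3 units in the 3 other arrays with high 25S signal. HRGP1, a hydroxyproline-rich wall glycoprotein, read 186.4 and 176.0 units after BA, against 743.8 and 703.8 units with solvent, a change of −1.98. It read 175.6 to 268.3 units in the 3 other arrays with high 25S signal. Over all 13 arrays it did not pass without a covariate (−1.98, limma, adjusted p = 0.39). With the 25S covariate it had −0.65 (adjusted p = 0.69). Of 6 class III peroxidases, which cross-link wall polymers, Prx37 fell, with a change of −1.91, and 5 did not pass.

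UDP-glycosyltransferases, which attach sugars to hormones and secondary metabolites, were measured by 51 genes. Of these 2 rose, 4 fell and 45 did not pass, where 2.21% of all probe sets were higher and 3.13% lower. GT72B1, which glucosylates phenolic compounds, read 27.3 and 23.1 units after BA, against 377.8 and 239.7 units with solvent, a change of −3.42 (SE 0.276, adjusted p = 0.035). UGT72E2, which glucosylates monolignols, fell by 1.34, while the related UGT72E1 rose by 1.48. UGT72E1 read 684.7 and 833.2 units after BA and 297.9 and 241.7 units with solvent, but 1506.2 units in CKX1 solvent array 3, and its sign turned with the 25S covariate (−1.09). UGT84A3 rose by 1.77. UGT73B5 and UGT73D1 were called lower at signals of at most 27.0 units in these 4 arrays.

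The 4 measured genes of flavonoid and anthocyanin synthesis all had both BA arrays below both solvent arrays, where 32.8% of all probe sets did, with a median of −1.59, and 0 passed. DFR, dihydroflavonol reductase, read 29.5 and 25.4 units after BA and 102.7 and 63.9 units with solvent (−1.46, adjusted p = 0.091). UGT78D2, a flavonoid 3-O-glucosyltransferase, had −1.72 (adjusted p = 0.054). The median became −0.35 with the 25S covariate. Of 5 measured genes of glucosinolate synthesis and transport, sulfur-rich defence compounds of this plant family, 2 fell and 0 rose (background for falls 3.13%). This list was drawn up after the values had been seen. BCAT4, the aminotransferase that starts chain elongation of methionine, read 28.1 and 22.3 units after BA, against 228.0 and 220.1 units with solvent, a change of −3.0 (SE 0.151, adjusted p = 0.034). The transporter GTR1 fell by 1.84, and its relative GTR2 had 166.4 and 169.7 units after BA, within the solvent values of 293.2 and 140.4 units. BCAT4 was low in Col-0 15 min array 2, at 19.9 units, and high in CKX1 solvent array 3, at 564.3 units. Among 14 glutathione transferases, which couple glutathione to reactive compounds, GSTU27 and GSTU20 fell, with changes of −1.62 and −1.41, and 0 rose (background for falls 3.13%). None of the 28 genes matched by cytochrome P450 symbols passed. That match also took in cyclophilins, such as SQN, CYP59 and CYP71, so fewer than 28 are cytochromes P450.

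Genes of cold, drought and stress signalling were lower where they passed. LTI30, a dehydrin that protects cells during cold and drought, read 55.7 and 50.1 units after BA, against 244.0 and 309.8 units with solvent, a change of −2.31 (SE 0.161, adjusted p = 0.034). It stayed past the threshold with the 25S covariate (−1.98, adjusted p = 0.038), and in the fit of all 13 arrays in their 5 groups it was the 1 of 71 named and called genes that passed. The other 3 genes of the list, COR47, COR15A and COR15B, did not pass. LEA18, a late embryogenesis abundant protein, read 2.3 and 5.7 units after BA, against 70.1 and 71.3 units with solvent, a change of −3.36, but 0.4 units in CKX1 solvent array 3, and it took the opposite sign with the 25S covariate (0.74). Among 8 WRKY and zinc-finger factors, STZ, a zinc-finger repressor of stress responses, read 40.1 and 51.8 units after BA, against 213.7 and 314.2 units with solvent, and WRKY6, a factor of senescence and defence, read 47.8 and 39.8 units after BA, against 186.9 and 188.0 units with solvent. Both fell, with changes of −2.42 and −2.02 (background for falls 3.13%). WRKY53 differed by −2.22 and did not pass (adjusted p = 0.14), nor did WRKY22, WRKY20, WRKY47, WRKY42 and ZAP1, which had −0.46 to 0.70.

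Of other hormone pathways few genes were measured, 12 of 122 for auxin, 4 of 14 for gibberellin and 1 of 21 for ethylene. Of these 2 rose and 0 fell (background 2.21% for rises and 3.13% for falls). EIN3, the transcription factor at the head of the ethylene response, read 608.2 and 651.2 units after BA, against 301.7 and 242.4 units with solvent, a rise of 1.21 (SE 0.142, adjusted p = 0.046). WES1, a GH3 enzyme that couples auxin to amino acids, read 778.3 and 852.3 units after BA, against 241.0 and 248.3 units with solvent, a rise of 1.72, and was the 1 of 12 GH3 and AUX/IAA genes to pass. EIN3 and WES1 were also high in CKX1 solvent array 3, at 548.6 and 741.9 units. Over all 13 arrays neither passed without a covariate (limma, adjusted p = 0.43 and 0.40). With the 25S covariate they had 0.39 and 0.43 (adjusted p = 0.77 and 0.73). IAA29, an auxin response repressor, had 70.9 and 66.3 units after BA and 16.6 and 5.6 units with solvent, a difference of 2.42 that did not pass (adjusted p = 0.089). None of the 4 gibberellin genes passed. The receptors GID1A, GID1C and GID1B had 1.22, 0.68 and −0.26, and SLY1, an F-box protein of gibberellin signalling, had 0.19.

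The direction of some photosynthesis genes depended on the scaling. Of 59 nuclear photosystem and light-harvesting genes 7 were measured, and 6 had both BA arrays above both solvent arrays (22.4% of all probe sets did), with differences of 0.56 to 1.08 that did not pass. The list's median was 0.71 as deposited and −0.08 after quantile normalization, where PSBY, PSAE-1 and LHCB4.1 turned sign (−0.15, −0.08 and −0.09). LHCB4.3, an antenna protein of photosystem II, fell by 1.19 on the log2 scale (133.8 and 124.0 units after BA, against 305.6 and 292.0 units with solvent). LHCB4.3 was low, at 61.3 to 130.6 units, in the 3 other arrays with high 25S signal too, and its sign turned with the 25S covariate (0.53). RCA, rubisco activase, had 5042.1 and 8049.1 units after BA and 3153.5 and 3819.8 units with solvent (0.88, adjusted p = 0.25), a difference that was 0.080 after quantile normalization. Of 69 plastid-encoded genes 0 passed, with a median of 0.58 that became 0.01 with the 25S covariate. The 3 measured reference genes differed by −0.26 to 0.41 and did not pass.

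Beyond the lists, the 15 largest rises and the 15 largest falls of genes reaching 50 units mostly belong to loci without a gene name in the annotation. Among the rises AT3G45730 read 111.2 and 112.3 units after BA, against 4.2 and 2.3 units with solvent, and AT3G07350 read 369.0 and 429.2 units after BA, against 22.2 and 30.6 units with solvent. AT1G21830 read 663.4 and 632.8 units after BA, against 83.5 and 68.2 units with solvent, and at 15 min it stood at 200.7 and 520.0 units, above both solvent arrays in each. AT5G02540 rose by 3.33 and AT5G26200 by 3.37, with at most 123.3 and 65.4 units in the other 9 arrays. The largest fall was that of AT2G41810, with 5.2 and 3.3 units after BA against 220.3 and 214.8 units with solvent (−4.87, SE 0.221, adjusted p = 0.034). AT3G28550 read 1.1 and 0.8 units after BA, against 133.3 and 113.4 units with solvent, a change of −4.83, and AT1G74460 changed by −4.38. In none of these 30 genes did a BA and a solvent array overlap, which the choice of genes required.

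The same 30 genes were followed in the other 9 arrays. Of the 15 that rose, 14 stood above both solvent arrays in each of the 3 other arrays with high 25S signal, against 3 to 9 in the remaining 6. Of the 15 that fell, 15 lay below both solvent arrays in Col-0 15 min array 2, 11 in CKX1 15 min array 3 and 12 in CKX1 solvent array 3, against 2 to 12 in the remaining 6. AT1G67860, for example, read 109.3 and 67.1 units after BA 120 min and 2.5 and 1.9 units with solvent, but 240.3 units in CKX1 solvent array 3, and its sign turned with the 25S covariate (−0.49). AT5G10040 was the 1 of the 15 that did not exceed both solvent arrays in Col-0 15 min array 2 and CKX1 15 min array 3.

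**Figure D5:**
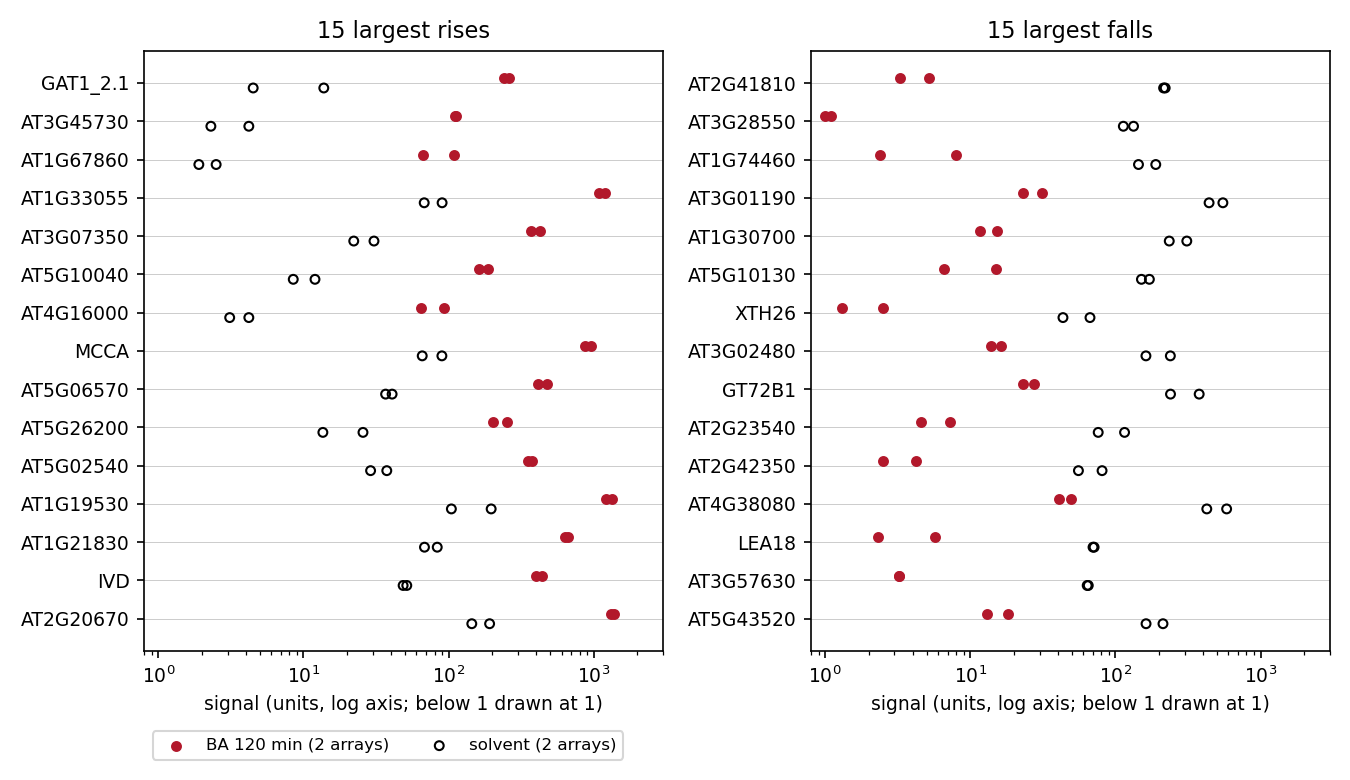
Signal in units (log axis, values below 1 drawn at 1) of the 15 largest rises (left) and the 15 largest falls (right), with the 2 BA 120 min arrays as filled red circles and the 2 solvent arrays as open circles. The groups do not overlap in any of the 30 genes, by the rule that chose them, and several falls end near the lowest signals measured.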

How the data were processed

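The deposited series table gives, for every array, linear signal intensities of the probe sets, normalized by the array service centre per the labels' protocols; the normalization method is not given in the sources used here, and the expression calls were not used here. All 13 sample columns were mapped by title and 0 were left unused. Values under 1 unit were set to 1, a pseudocount of 3.39 units (0.1 of the table median of 33.9) was added and log2 taken, so fold changes of dim probe sets are understated. limma 3.58.1 in R 4.3.3 (lmFit, eBayes with an intensity trend) was fitted to the 4 arrays with group as its one term, over 22746 probe sets without a filter, with 2 residual degrees of freedom. Benjamini-Hochberg adjustment covered all of them, with a threshold of 0.05. The number of arrays, 2 a group, limits the precision.

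Genes came from the platform annotation: 13513 probe sets had 1 gene (13436 matched the RefSeq table), 503 several and 8730 none listed, which leaves them unnamed here. Genes to name came from a rule: the 15 largest rises and falls among calls with 1 gene, non-overlapping groups and at least 50 units, every measured type-A regulator, up to 6 called members of each list in each direction, and all measured members of lists of at most 8. Part of these are given only as counts, ranges or points in a plot, a choice made after their values were seen. Genes outside the rule were also chosen after their values were seen (AT3G10040, AT4G10270, AT5G42200, AT4G24110, AT4G39675, AT3G03270, IAA29, ETFALPHA, ETFBETA, AT4G33150, AT2G26800, D2HGDH, AT5G09300). The compared groups and lists were chosen with earlier results of these data known, and 3 lists (starvation, amino acid breakdown, glucosinolates) after seeing values. Lists are described by counts and medians, without a set test. Promoter sequences were not used here. In a simulation with independent normal noise, 200 of 22746 probe sets were changed, all drawn from those above the 30th percentile of mean signal. The fit recovered 14.9% of log2 changes of 1, 59.7% of 2 and 90.9% of 4. These shares need not hold for the real arrays, where 5815 probe sets had an unadjusted p under 0.05 (limma). Alternatives were filters, pseudocounts, scalings, variance models, wider sets of arrays, a 25S covariate, a replicate block and leaving out each array.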

Additional observations from a re-analysis of the deposited data

Results flagged for a closer look

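The 25S ribosomal RNA control, which entered no comparison, averaged 622 units in the 2 BA 120 min arrays, against 32.2 units in the 2 solvent arrays.

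LTI30 differed between the 2 times of BA: both 120 min arrays (55.7 and 50.1 units) lay below both solvent arrays (244.0 and 309.8 units), a log2 change of −2.31, while both 15 min arrays (317.1 and 325.9 units) lay above them. AT4G33560, of the low-oxygen list, went the opposite way: both 120 min arrays (396.2 and 448.2 units) lay above both solvent arrays (71.7 and 100.7 units), a log2 change of 2.26, and both 15 min arrays (48.1 and 1.9 units) lay below them. The difference between the times was not tested for either gene, and the 2 contrasts share the solvent arrays.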

How the results depend on the processing

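Against 1216 probe sets past the threshold (503 higher, 713 lower), pseudocounts of 1 unit and of 0.5 of the table median gave 1139 and 1265, and quantile normalization 1041. Filters that cut the number of probe sets tested gave more: 3642 (1449 higher, 2193 lower) above the 30th percentile of mean signal and 3602 (1566 higher, 2036 lower) with at least 50 units in both arrays of a group. Median-centred arrays gave 2722 (1506 higher, 1216 lower) and robust moderation 1831 (729 higher, 1102 lower). Without the intensity trend 0 passed (limma, 5865 at an unadjusted p under 0.05), but without the trend and above the 30th percentile 2477 did (913 higher, 1564 lower; chosen after seeing the data). No probe set passed, 0 in each direction, in the 6 Col-0 arrays (3491 at an unadjusted p under 0.05), against a log2 change of 1 (1073) or when 1 array was left out (0 for each of the 4 arrays, with 3350 to 6345 at an unadjusted p under 0.05). All 13 arrays gave 3 (2 higher, 1 lower), with the 25S covariate 30 (21 higher, 9 lower), 17 of them among the 1216, and with a term for the 5 arrays high in 25S, chosen after seeing the data, 16 (14 higher, 2 lower). The cause was not tested. With the replicate number as a block 0 passed, 0 in each direction (5066 at an unadjusted p under 0.05). Deviations of same-numbered arrays correlated at −0.03 over the probe sets. With 2 arrays a group this value cannot tell whether same-numbered arrays share a culture.

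All 71 named and called genes that could be fitted kept their direction in every alternative but the 2 with 25S terms, where 65 and 62 did. Opposite signs with the 25S covariate and with the 5-array term were −1.09 and −1.37 for UGT72E1, 0.065 and 0.43 for XTH19, −0.49 and −1.20 for AT1G67860, −0.17 and −0.38 for GAT1_2.1, 0.53 and 0.48 for LHCB4.3 and 0.74 and 0.90 for LEA18. With the 5-array term alone they were −0.00076 for AT3G45730, 0.18 for AT3G02480 and 0.079 for EXPB1. Low signal limits the calls: 1.48% of probe sets under 50 units passed, against 9.81% of the others.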

Other observations

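Some of the widest gaps between BA 120 min and solvent were on probe sets without a listed gene, chosen here after their values were seen. Probe set 264524_at read 784.8 and 921.2 units after BA, against 25.9 and 22.5 units with solvent (log2 fold change 4.95), and 264777_at read 719.2 and 826.5 units after BA, against 29.7 and 22.7 units with solvent (4.72). Both were also raised in CKX1 solvent array 3, at 286.9 and 200.6 units. Probe set 260623_at read 3.6 and 2.6 units after BA, against 660.5 and 528.3 units with solvent (−6.52), and 23.9 units in CKX1 solvent array 3.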
